A study of Mus musculus with 26 samples.

Results

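The 10 genes described here encode the enzymes that break down the branched-chain amino acids leucine, isoleucine and valine, together with the kinase and the phosphatase that set the activity of the committed step. They were chosen by name (Bcat1, Bcat2, Bckdha, Bckdhb, Dbt, Dld, Bckdk, Ppm1k, Ivd and Mccc1) from the 52962 mouse genes of the count table. The rule itself uses no measured value, but the choice was made with earlier results of these data known. All 10 were found, and all 10 were among the 15402 genes that passed the filter on low counts (more than 0.5 CPM, counts scaled to library size, in at least 4 libraries). The genes were followed in brown preadipocytes from mice with floxed insulin receptor (IR) and IGF1 receptor (IGF1R) genes, immortalised with SV40 T-antigen, in which both receptors had been inactivated with Cre recombinase (DKO cells). Into these DKO cells one FLAG-tagged human receptor each had been put back: the full-length IR (B isoform), the kinase-dead K1030R, ∆CT, which lacks the C-terminal tail, or JMO, which keeps only the juxtamembrane stretch of the intracellular domain. Every line therefore carries the deletion of both mouse receptors, and there is 1 line for each receptor. The labels do not say whether libraries of a group came from separate cultures, so p-values measure the spread between these samples, which may be technical, and not that between independently made lines.

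All cells were starved of serum for 6 h. DKO cells were taken in the basal state only. IR, K1030R, ∆CT and JMO cells were taken in the basal state and after 100 nM insulin for 15 min. There were 3 libraries per group and 2 for ∆CT with insulin, 26 in all. The sample titles KD and CT were taken to mean the K1030R and ∆CT lines. Library totals ran from 17228982 to 24694828 counts, and the members had between 133 counts (the lowest value of Bckdhb) and 2889 counts (the highest of Dld) in a library. Insr counts, assigned to the mouse transcript, lay between 22.3 and 24.8 CPM in DKO cells and between 65.5 and 99.7 CPM in the 23 libraries of the receptor lines. Igf1r lay between 24.7 and 28.6 CPM in DKO cells and between 29.7 and 35.7 CPM in the others. Counts per gene do not show the deleted exons, so they do not check the knockout. Of the markers of brown fat, Ucp1, Cidea, Ebf2, Prdm16 and Dio2 were below 0.5 CPM in every library and only Zic1 was expressed (group means from 112 to 140 CPM). The preadipocyte markers other than Dlk1 were expressed, and the mature adipocyte markers other than Fabp4 were below 0.5 CPM in every library.

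Breakdown of the branched-chain amino acids starts with a reversible transfer of the amino group to alpha-ketoglutarate, carried out by BCAT1 in the cytosol and BCAT2 in mitochondria. The branched-chain ketoacids are then oxidised by the mitochondrial branched-chain ketoacid dehydrogenase complex (BCKDH), which commits them to oxidation. BCKDH is switched off when the kinase BCKDK phosphorylates its decarboxylase and switched on when the phosphatase PPM1K removes the phosphate. In brown fat the pathway is known as a supply of carbon for heat production.

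Upstream sequence is shown for Bckdk and Ppm1k, of which the first rose and the second fell in K1030R and ∆CT cells against DKO. It is also shown for Bckdhb. Like Bckdk, this gene was called higher in all 4 receptor lines, with calls lost in some alternatives given below. Each run is the 250 bases before the transcription start, 5′ to 3′ on the gene's strand, from RefSeq on build GRCm38.p6, with matches to the CCAAT box (CCAAT, or ATTGG on the opposite strand) in capitals. The Bckdk run is chr7:127903823-127904072 on the plus strand, the Ppm1k run is chr6:57535488-57535737 on the minus strand, and the Bckdhb run is chr9:83924887-83925136 on the plus strand.
Bckdk: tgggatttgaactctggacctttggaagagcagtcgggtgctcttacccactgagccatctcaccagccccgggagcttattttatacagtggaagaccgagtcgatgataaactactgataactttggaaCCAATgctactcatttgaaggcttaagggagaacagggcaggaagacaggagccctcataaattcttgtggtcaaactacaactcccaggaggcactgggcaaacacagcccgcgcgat
Ppm1k: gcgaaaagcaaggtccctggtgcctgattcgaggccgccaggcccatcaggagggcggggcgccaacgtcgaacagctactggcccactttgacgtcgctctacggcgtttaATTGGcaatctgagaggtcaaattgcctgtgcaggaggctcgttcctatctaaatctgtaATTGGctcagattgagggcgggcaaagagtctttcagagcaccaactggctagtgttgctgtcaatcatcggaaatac
Bckdhb: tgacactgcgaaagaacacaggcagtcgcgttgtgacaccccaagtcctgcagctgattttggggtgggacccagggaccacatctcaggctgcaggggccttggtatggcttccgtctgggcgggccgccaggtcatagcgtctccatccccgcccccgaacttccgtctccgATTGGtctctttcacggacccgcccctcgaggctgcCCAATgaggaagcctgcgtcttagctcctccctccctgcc

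Both strands of the 9 members in the RefSeq table were searched for 3 short motifs. At least 1 CCAAT box stood in 7 of the 9 runs, against 33.8% of the 32851 runs of the same length in the table. One of these runs is that of Bcat1, whose RefSeq start was not matched to a GENCODE transcript. Ppm1k and Bckdhb each had 2 matches, Bckdk had 1, Mccc1 had 3 and Ivd had 4. The runs of Bcat2 and Bckdha, both called members, had 0. The GC box (GGGCGG, or CCGCCC on the opposite strand, which can share bases with a CCAAT box) stood in 3 of 9 runs, among them those of Ppm1k and Bckdhb, against 32.7% of all runs. The E-box CACGTG was found in 0 of 9 runs, against 6.0% of all runs. These matches describe letters in the sequence and were not tested for binding.

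Compared per kilobase of the principal transcript, the level of the members spanned about an order of magnitude over the 26 libraries. Dld, the dihydrolipoamide dehydrogenase that BCKDH shares with other complexes, had the highest mean at 43.3 CPM per kilobase, followed by Bcat1 at 32.9 CPM per kilobase. Bckdk (14.1), Bcat2 (13.7) and Bckdha (11.9 CPM per kilobase) formed the middle, and Ivd (8.72), Mccc1 (8.33), Bckdhb (6.31), Dbt (5.2) and Ppm1k (4.28 CPM per kilobase) the lower end. The order depends on the transcript that supplies the length, since with all exons of a gene as length Bcat1 came to 9.02 and Mccc1 to 1.87 CPM per kilobase. All other levels below are CPM scaled with TMM factors, and are compared only between libraries of the same gene. A lower level can reflect fewer cells of a type or less RNA per cell, and these cannot be told apart in bulk RNA.

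**Figure D1:**
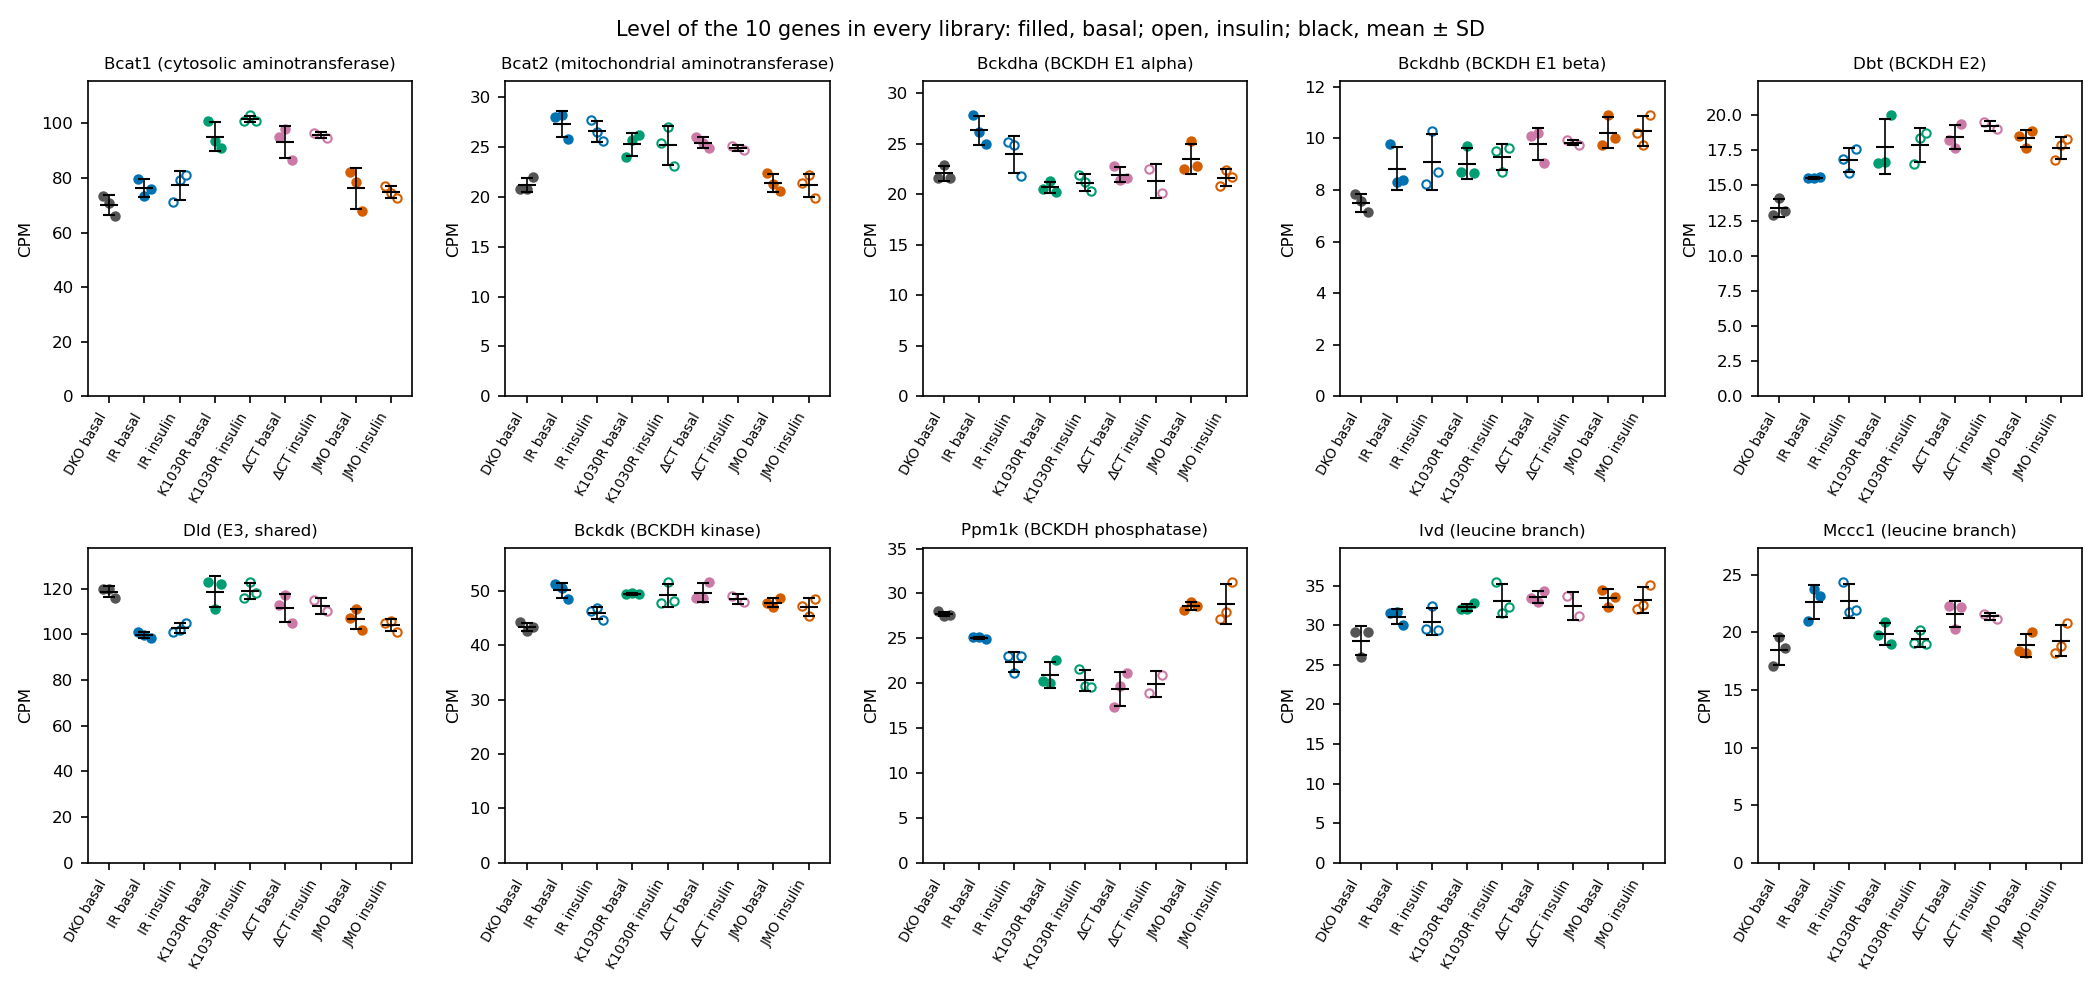
Level of each of the 10 genes (CPM, TMM-scaled, linear axis from 0) in every library, by group; filled circles are basal and open circles insulin libraries, and black marks are mean ± SD. Ppm1k lies between 17.3 and 22.6 CPM in basal K1030R and ∆CT libraries, against 27.5 to 29.0 CPM in basal DKO and JMO libraries, while insulin and basal circles of a line lie close together for most genes.

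Each receptor line was compared with DKO cells without insulin. With 1 line for each receptor, a difference due to the receptor and one due to the line cannot be told apart. A call is an adjusted p below 0.05 by edgeR's quasi-likelihood test, with p-values adjusted by the method of Benjamini and Hochberg over all 15402 genes, and the share of all tested genes that was called is given as the background of each count. In IR cells 8 members were called (background 49.8%), of which 7 rose (background 25.6%) and 1 fell (24.1%). With DESeq2 this count was 5, since the calls of Bckdhb, Dbt and Ivd were lost (adjusted p = 0.121, 0.0673 and 0.116). The 49.8% is the share called by edgeR, and the share called by DESeq2 is not given. In K1030R cells 7 were called (background 41.6%), of which 6 rose (21.2%) and 1 fell (20.4%). In ∆CT cells 8 were called (background 46.4%), of which 7 rose (23.4%) and 1 fell (22.9%). In JMO cells 5 were called (background 34.2%), of which 4 rose (16.8%) and 1 fell (17.4%). Bckdhb, Dbt, Bckdk and Ivd rose in all 4 lines, Bcat2 in IR cells, K1030R and ∆CT cells, Bcat1 in K1030R and ∆CT cells, Mccc1 in IR and ∆CT cells, and Bckdha in IR cells. Ppm1k fell in K1030R and ∆CT cells, and Dld fell in IR and JMO cells. These 4 comparisons share the DKO libraries. The median log2 fold change of the 10 members was 0.21 in IR cells, 0.20 in K1030R cells, 0.24 in ∆CT and 0.11 in JMO cells, beside a median over all genes of at most 0.014. The changes were small. The largest against DKO was 1.43-fold, for Ppm1k in ∆CT cells, and 0 members passed a minimum fold of 1.5 (edgeR's glmTreat) against DKO, where the share of all genes that did was 6.88% for IR, 5.29% for K1030R, 6.3% for ∆CT and 2.11% for JMO cells.

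**Figure D2:**
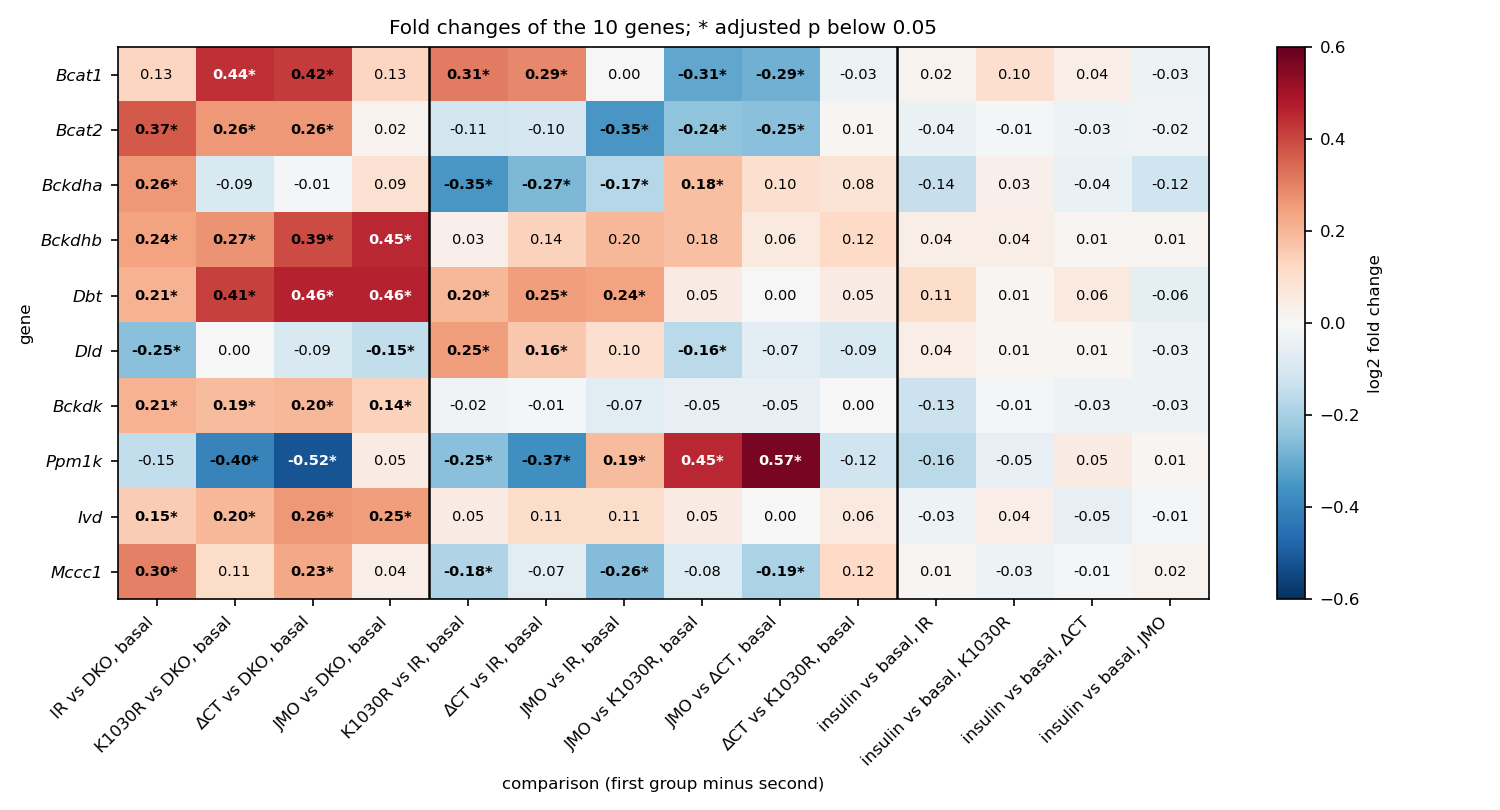
Log2 fold change of each gene (rows) in each comparison (columns, first group minus second); asterisks mark an adjusted p below 0.05 in edgeR's quasi-likelihood test. The 4 insulin columns at the right hold no asterisk, and the row of Ppm1k runs from -0.52 (∆CT against DKO) to 0.57 (JMO against ∆CT).

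The aminotransferases differed from each other in their order across lines. Bcat1 (ENSMUSG00000030268, chr6:144993835-145076184, minus strand, GRCm38), the cytosolic enzyme, had 73.2, 70.9 and 66.0 CPM in DKO cells, 79.7, 73.4 and 75.9 in IR cells, 101, 93.5 and 90.8 in K1030R cells, 95.0, 98.1 and 86.5 in ∆CT cells, and 82.3, 78.4 and 67.9 in JMO cells without insulin. Every K1030R and ∆CT library lay above every library of the other 3 lines. Against DKO, Bcat1 rose by a log2 fold change of 0.44 ± 0.06 (SE, n = 3 against 3) in K1030R cells (adjusted p = 1.14e-06) and 0.42 ± 0.06 in ∆CT cells (adjusted p = 2.25e-06). In IR cells the difference was 0.13 ± 0.06 and missed the threshold (adjusted p = 0.0816), although all IR libraries lay above all DKO libraries. It was 0.08 without DKO basal replicate 3 (adjusted p = 0.322). It passed with no filter (adjusted p = 0.0138), with only these groups fitted (0.0427), with the replicate number as a block (0.0458) and without JMO basal replicate 3 in the shared fit (0.0313). Bcat1 was also higher in K1030R than in IR cells (0.31 ± 0.06, adjusted p = 0.000209) and in ∆CT than in IR cells (0.29 ± 0.06, adjusted p = 0.00064). JMO cells lay below K1030R (-0.31 ± 0.06) and ∆CT cells (-0.29 ± 0.06), and against DKO the difference of 0.13 ± 0.06 did not pass (adjusted p = 0.11). That last value moved with single libraries, to 0.20 without JMO basal replicate 3 (adjusted p = 0.00515) and to 0.07 without JMO basal replicate 1 (adjusted p = 0.46), and it passed with no filter (adjusted p = 0.0465).

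Bcat2 (ENSMUSG00000030826, chr7:45570153-45589711, plus strand), the mitochondrial enzyme, had 20.8, 20.8 and 22.0 CPM in DKO and 22.4, 21.3 and 20.6 in JMO cells. Its values were 28.0, 28.2 and 25.8 CPM in IR cells, 24.0, 25.7 and 26.2 in K1030R cells, and 26, 25.4 and 24.9 in ∆CT cells. The 9 libraries of IR, K1030R and ∆CT cells all lay above the 6 of DKO and JMO cells. Against DKO the log2 fold change was 0.37 ± 0.06 in IR (adjusted p = 3.52e-06), 0.26 ± 0.06 in K1030R (adjusted p = 0.000794) and 0.26 ± 0.06 in ∆CT cells (adjusted p = 0.000468), whereas in JMO cells it was 0.02 ± 0.06 with a 95% interval from -0.11 to 0.15. JMO cells were lower than IR (-0.35 ± 0.06), K1030R (-0.24 ± 0.06) and ∆CT cells (-0.25 ± 0.06), with adjusted p of 0.00184 or less. IR cells had the highest mean of the 5 lines for Bcat2 and a mean close to that of JMO cells for Bcat1. Within libraries the Bcat1 to Bcat2 ratio of CPM was 2.79 in IR cells, 3.3 in DKO cells, 3.54 in JMO, 3.66 in ∆CT and 3.75 in K1030R cells without insulin.

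Dbt (ENSMUSG00000000340, chr3:116513070-116549981, plus strand), the transacylase that forms the core of the complex, had 12.9, 14.1 and 13.2 CPM in DKO cells. It had 15.5, 15.5 and 15.6 CPM in IR cells, 16.6, 16.7 and 20 in K1030R cells, 18.2, 17.7 and 19.4 in ∆CT cells, and 18.5, 17.7 and 18.9 in JMO cells. All 12 libraries of the receptor lines lay above the DKO libraries. The log2 fold change against DKO was 0.21 ± 0.07 in IR (adjusted p = 0.0145), 0.41 ± 0.07 in K1030R (adjusted p = 1.86e-05), 0.46 ± 0.07 in ∆CT (adjusted p = 2.08e-06) and 0.46 ± 0.07 in JMO cells (adjusted p = 4.52e-06). IR cells had the least of the receptor lines. They were below K1030R (0.20 ± 0.07, adjusted p = 0.0343), ∆CT (0.25 ± 0.07, adjusted p = 0.00829) and JMO cells (0.24 ± 0.07, adjusted p = 0.00502), differences of the other line minus IR. The first of these was 0.10 without K1030R basal replicate 3 (adjusted p = 0.36) and was lost without any 1 of the IR basal libraries (adjusted p from 0.0619 to 0.0766). The IR call against DKO was lost without DKO basal replicate 1 (adjusted p = 0.0604), with DESeq2 (0.0673) and with library totals as the only scaling (0.0621). With the insulin libraries of the same lines these 3 differences were 0.09, 0.20 and 0.07 and none passed (adjusted p = 0.322, 0.0675 and 0.441).

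Bckdhb (ENSMUSG00000032263, chr9:83925145-84124240, plus strand), the beta subunit of the decarboxylase, showed a like order with the lowest counts of the 10 genes. It had 7.83, 7.56 and 7.13 CPM in DKO cells, 9.78, 8.31 and 8.40 in IR cells, 8.70, 9.71 and 8.64 in K1030R cells, 10.1, 10.2 and 9.06 in ∆CT cells, and 9.76, 10.9 and 10 in JMO cells. Again every receptor library lay above every DKO library, while the receptor lines overlapped except JMO above K1030R. The log2 fold change against DKO was 0.45 ± 0.09 in JMO (adjusted p = 0.000262) and 0.39 ± 0.09 in ∆CT cells (adjusted p = 0.000929). It was 0.27 ± 0.10 in K1030R (adjusted p = 0.0227) and 0.24 ± 0.10 in IR cells (adjusted p = 0.033), and both of these calls were lost with DESeq2 (adjusted p = 0.0842 and 0.121) and without DKO basal replicate 3 (adjusted p = 0.103 and 0.134). The K1030R call was also lost without K1030R basal replicate 2 (adjusted p = 0.128), and the IR call without DKO basal replicate 2 (0.0581), IR basal replicate 1 (0.231) or JMO insulin replicate 2 (0.0533).

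Bckdha (ENSMUSG00000060376, chr7:25629946-25658981, minus strand), the alpha subunit that carries the regulatory phosphorylation sites, followed another order than its partner Bckdhb. It had 27.8, 26.1 and 25 CPM in IR cells, against 21.6, 22.9 and 21.6 in DKO cells, 20.5, 21.3 and 20.2 in K1030R cells, 22.8, 21.4 and 21.6 in ∆CT cells, and 22.5, 25.2 and 22.8 in JMO cells. The IR libraries lay above all libraries of DKO, K1030R and ∆CT cells and overlapped with 1 JMO library. IR exceeded DKO cells by a log2 fold change of 0.26 ± 0.06 (adjusted p = 0.000648). K1030R (-0.35 ± 0.06, adjusted p = 4.85e-05) and ∆CT cells (-0.27 ± 0.06, adjusted p = 0.00125) were below IR cells. The differences of JMO from IR (-0.17 ± 0.06, adjusted p = 0.0249) and from K1030R cells (0.18 ± 0.06, adjusted p = 0.025) were lost when single libraries were left out. The first had an adjusted p of 0.158 without IR basal replicate 1, 0.131 without JMO basal replicate 1 and 0.0878 without JMO basal replicate 3. The second had 0.0658 without K1030R basal replicate 1, 0.0871 without K1030R basal replicate 3 and 0.155 without JMO basal replicate 2. With the insulin libraries the difference of K1030R from IR cells was -0.18 and passed (adjusted p = 0.025). The other 3 no longer passed, at -0.17 for ∆CT against IR (adjusted p = 0.086), -0.15 for JMO against IR (0.0575) and 0.03 for JMO against K1030R (0.75).

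Dld (ENSMUSG00000020664, chr12:31331277-31351453, minus strand), which also serves the pyruvate and ketoglutarate dehydrogenases and the glycine cleavage system, was the member that fell in IR cells. It had 120, 120 and 116 CPM in DKO cells, 101, 99.7 and 98.4 in IR cells, 123, 111 and 122 in K1030R cells, 113, 117 and 105 in ∆CT cells, and 107, 111 and 102 in JMO cells. IR libraries lay below the libraries of all other lines, and JMO libraries below those of DKO cells. Against DKO the log2 fold change was -0.25 ± 0.04 in IR (adjusted p = 2.87e-06) and -0.15 ± 0.04 in JMO cells (adjusted p = 0.00262). In ∆CT cells it was -0.09 ± 0.04 and missed the threshold (adjusted p = 0.0737), and it ranged from -0.04 without ∆CT basal replicate 3 (adjusted p = 0.409) to -0.12 without ∆CT basal replicate 2 (adjusted p = 0.0183). It also passed with library totals as the only scaling (-0.13, adjusted p = 0.0116). K1030R (0.25 ± 0.04, adjusted p = 8.86e-06) and ∆CT cells (0.16 ± 0.04, adjusted p = 0.00229) were above IR cells, and JMO was below K1030R cells (-0.16 ± 0.04, adjusted p = 0.00245).

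The kinase was called higher in every receptor line. Bckdk (ENSMUSG00000030802, chr7:127904082-127910221, plus strand) had 44.2, 42.7 and 43.3 CPM in DKO cells, 51.2, 50.6 and 48.6 in IR cells, 49.4, 49.7 and 49.4 in K1030R cells, 48.7, 48.7 and 51.7 in ∆CT cells, and 47.8, 47.1 and 48.7 in JMO cells. No DKO library reached the lowest receptor library. The log2 fold change against DKO was 0.21 ± 0.04 in IR (adjusted p = 7.39e-05), 0.19 ± 0.04 in K1030R (adjusted p = 0.000362), 0.20 ± 0.04 in ∆CT (adjusted p = 0.000213) and 0.14 ± 0.04 in JMO cells (adjusted p = 0.00744), the last lost with no filter on low counts (0.13, adjusted p = 0.052). No pair of receptor lines differed by the test. Of the 10 members Bckdk had the narrowest range of group means, 0.21 on the log2 CPM scale.

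The phosphatase had the widest range, 0.57 on the same scale, and the other direction. Ppm1k (ENSMUSG00000037826, chr6:57506502-57535468, minus strand) had 28.0, 27.5 and 27.6 CPM in DKO and 28.2, 29.0 and 28.6 in JMO cells. It had 25.1, 25.1 and 24.9 CPM in IR cells, 20.2, 20 and 22.6 in K1030R cells, and 17.3, 19.7 and 21.1 in ∆CT cells. The order from high to low was JMO, DKO, IR, K1030R, ∆CT, and no libraries of IR cells overlapped with those of any other line. Ppm1k fell against DKO, with a log2 fold change of -0.40 ± 0.07 in K1030R (adjusted p = 6.95e-06) and -0.52 ± 0.07 in ∆CT cells (adjusted p = 5.26e-08). In IR cells the log2 fold change was -0.15 ± 0.06 with an adjusted p of 0.0575, which passed with RLE scaling (adjusted p = 0.0368), with library totals as the only scaling (adjusted p = 0.0149) and with only these groups fitted (adjusted p = 0.0303). It also passed without ∆CT basal replicate 1 or 3 or without JMO insulin replicate 2 or 3, libraries of other lines that enter the shared spread (adjusted p from 0.0334 to 0.0467). In JMO cells it was 0.05 ± 0.06 (adjusted p = 0.619, 95% interval from -0.09 to 0.18).

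Between receptor lines, Ppm1k was lower in K1030R than in IR cells (-0.25 ± 0.07, adjusted p = 0.00375) and lower in ∆CT than in IR cells (-0.37 ± 0.07, adjusted p = 6.12e-05). K1030R and ∆CT cells, neighbours in the order, differed by -0.12 ± 0.07 (∆CT minus K1030R, adjusted p = 0.429), a value that ran from -0.19 without ∆CT basal replicate 3 to -0.04 without ∆CT basal replicate 1. JMO cells were above all 3, by 0.19 ± 0.06 against IR (adjusted p = 0.0136), 0.45 ± 0.07 against K1030R (adjusted p = 1.27e-06) and 0.57 ± 0.07 against ∆CT cells (adjusted p = 1.06e-08). The last is the largest difference of any member between 2 lines, 1.48-fold. With insulin libraries the K1030R and ∆CT differences from IR cells were -0.14 and -0.16 and did not pass (adjusted p = 0.115 and 0.134), and that of JMO from IR cells was 0.36 (adjusted p = 2.27e-05).

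The ratio of kinase to phosphatase CPM within a library was also read. It was 1.57 in DKO cells, 1.67 in JMO, 2.0 in IR cells, 2.37 in K1030R and 2.58 in ∆CT cells without insulin, as the antilog of the mean log2 ratio over 3 libraries. On the log2 scale the libraries ran from 0.63 to 0.66 in DKO cells, 0.70 to 0.77 in JMO, 0.97 to 1.03 in IR cells, 1.13 to 1.31 in K1030R and 1.29 to 1.49 in ∆CT cells. All lines but K1030R and ∆CT were apart from their neighbours. With insulin the ratio was 1.63 in JMO, 2.05 in IR cells, 2.42 in K1030R and 2.44 in ∆CT cells. The ratio was not tested, and it is of transcripts of different length, so only its differences between lines can be read.

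**Figure D3:**
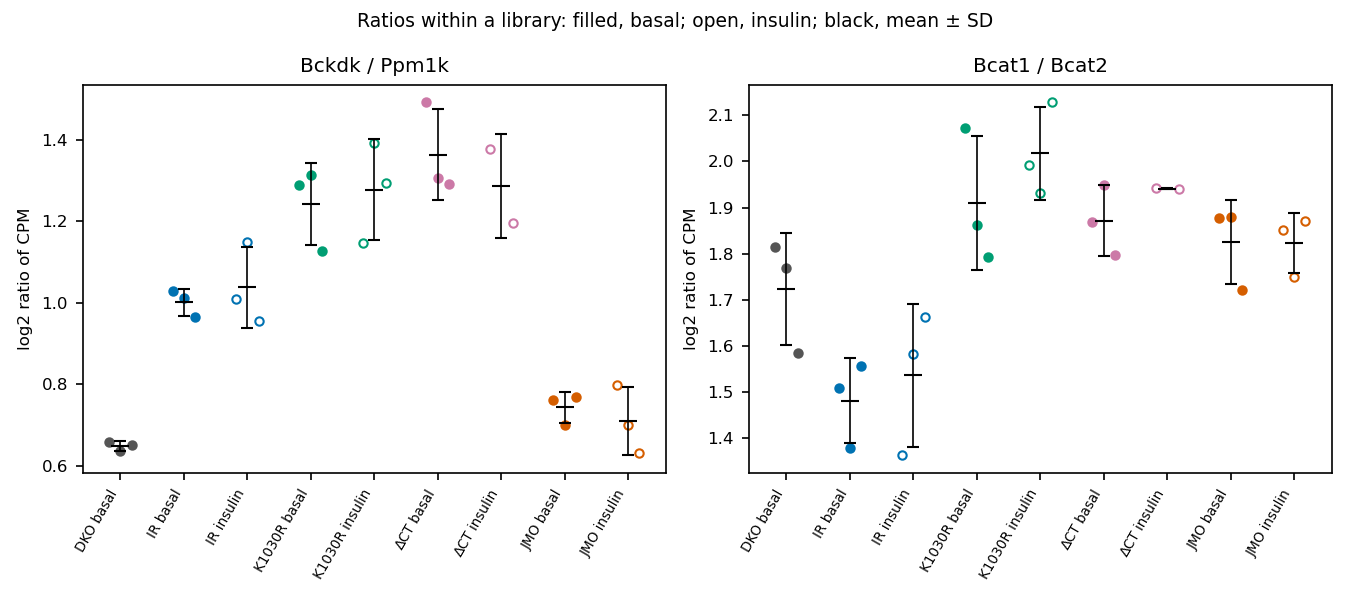
Log2 ratio of CPM within each library for Bckdk over Ppm1k (left) and Bcat1 over Bcat2 (right), by group; filled circles are basal and open circles insulin libraries, black marks are mean ± SD, and the axes do not start at 0. The kinase to phosphatase ratio has its lowest mean in DKO cells (libraries from 0.63 to 0.66, a range that JMO insulin libraries reach) and its highest in basal ∆CT cells (1.29 to 1.49).

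Ivd and Mccc1 belong to the leucine branch after BCKDH. Ivd (ENSMUSG00000027332, chr2:118861954-118882909, plus strand), isovaleryl-CoA dehydrogenase, had 29.1, 26 and 29.1 CPM in DKO cells, 31.6, 31.7 and 30.0 in IR cells, 32.0, 32.0 and 32.8 in K1030R cells, 33.5, 32.9 and 34.3 in ∆CT cells, and 34.5, 32.3 and 33.6 in JMO cells. Every receptor library was above every DKO library. The log2 fold change against DKO was 0.26 ± 0.06 in ∆CT (adjusted p = 0.000287), 0.25 ± 0.06 in JMO (adjusted p = 0.000486) and 0.20 ± 0.06 in K1030R cells (adjusted p = 0.00454). In IR cells it was 0.15 ± 0.06 (adjusted p = 0.0319), a call that did not hold with RLE scaling (0.13, adjusted p = 0.0533) or without DKO basal replicate 2 (0.10, adjusted p = 0.203), IR basal replicate 1 (adjusted p = 0.0967), IR basal replicate 2 (0.0884) or JMO insulin replicate 2 (0.0672).

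Mccc1 (ENSMUSG00000027709, chr3:35959312-36000678, minus strand), the biotin-carrying subunit of methylcrotonyl-CoA carboxylase, had 17.1, 19.6 and 18.6 CPM in DKO and 18.4, 18.2 and 20 in JMO cells. It had 21.0, 23.8 and 23.2 CPM in IR cells, 19.8, 20.9 and 19.0 in K1030R cells, and 22.3, 20.3 and 22.2 in ∆CT cells. IR and ∆CT libraries lay above all DKO and JMO libraries, and K1030R libraries overlapped with both. Mccc1 rose against DKO by 0.30 ± 0.07 in IR (adjusted p = 0.000434) and by 0.23 ± 0.07 in ∆CT cells (adjusted p = 0.00617), log2 fold changes both. JMO was below IR cells (-0.26 ± 0.07, adjusted p = 0.00187). The smaller differences of K1030R from IR (-0.18 ± 0.07, adjusted p = 0.0373) and of JMO from ∆CT cells (-0.19 ± 0.07, adjusted p = 0.0225) were lost when single libraries were left out. The first was lost without IR basal replicate 2 or 3, K1030R basal replicate 1 or 3, or JMO insulin replicate 2 (adjusted p from 0.0605 to 0.161). The second was lost without ∆CT basal replicate 1 or 3 or JMO basal replicate 1 or 2 (adjusted p from 0.068 to 0.0941). Mccc1os, an antisense gene over Mccc1, had a mean count of 24.1 per library, 5.79% of that of Mccc1, the largest such share among the 13 overlapping genes whose counts were read.

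Comparisons among receptor lines asked how the members' levels differed where the kinase activity, the C-terminal tail or most of the intracellular domain was missing. K1030R differed from IR cells in 6 members (3 higher, 3 lower, background 30.2%) and ∆CT from IR cells in 5 (3 higher, 2 lower, background 26.1%). With insulin in place of basal libraries the ∆CT count was 2 (background 19.7%). Bcat1, Dbt and Dld were higher and Bckdha and Ppm1k lower in both in the basal state. K1030R and ∆CT cells differed from each other in 0 members by edgeR's quasi-likelihood test (background 3.43%), with 1 member (Dld) at an unadjusted p below 0.05, and in 0 with DESeq2 and with limma voom. JMO differed from IR in 5 (2 higher, 3 lower, background 42.4%), from K1030R in 5 (2 higher, 3 lower, background 35.4%) and from ∆CT cells in 4 members (1 higher, 3 lower, background 38.8%). The count of JMO against IR cells was 3 with insulin libraries (background 40.2%). Bcat2 was lower and Ppm1k higher in JMO cells in all 3 of these comparisons.

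The mean of the 3 lines with an intracellular kinase domain (IR, K1030R and ∆CT) was also set against the mean of DKO and JMO cells. By this contrast 6 members were called (background 52.3%), of which 5 rose (26.7%) and 1 fell (25.6%). Bcat2 rose by 0.29 ± 0.04, Bcat1 by 0.27 ± 0.04, Mccc1 by 0.19 ± 0.04, Dbt by 0.13 ± 0.05 and Bckdk by 0.13 ± 0.03, while Ppm1k fell by 0.38 on the log2 scale (SE 0.04). Adjusted p were 0.0147 for Dbt and 0.000355 or less for the others in edgeR's quasi-likelihood test. The lines of a side were not alike for every called member. By the same test Dbt was higher in JMO than in IR cells (0.24 ± 0.07, adjusted p = 0.00502), and its mean was 18.4 CPM in both JMO and ∆CT cells. Bckdk was higher in JMO than in DKO cells (0.14 ± 0.04, adjusted p = 0.00744), and JMO differed from no other receptor line. For Bcat1, IR and JMO cells had means of 76.3 and 76.2 CPM. Bcat2, all higher, and Ppm1k, all lower, were the 2 of 10 members with no overlap between the 9 and the 6 libraries, and 15.2% of all genes tested had none. Without K1030R basal replicate 3 the value of Dbt was 0.10 with an adjusted p of 0.051, and the call was also lost with DESeq2 (0.0586) and with library totals as the only scaling (0.0833).

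The genes whose pattern over the 9 group means was most like that of the widest-ranging members were found among the 15402 tested, by the root mean square difference of centred log2 CPM. For Ppm1k these were Creg1 (0.04), Slc25a22 (0.044) and Psme1 (0.048), and for Bcat1 they were Got1 (0.049), Haus7 (0.054) and Dlc1 (0.054). Got1, the cytosolic aspartate aminotransferase, had a mean of 43.7 CPM in DKO cells, 48.2 in IR cells, 56.3 in K1030R cells, 54.9 in ∆CT cells and 46.4 in JMO cells, all basal. These means had the order of those of Bcat1, but Got1 was chosen for its likeness to Bcat1, so this is no separate observation.

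Insulin for 15 min changed 0 members in each of the 4 receptor lines by edgeR's quasi-likelihood test. All genes called made up 1.87% in IR cells, 0.156% in K1030R cells, 1.01% in ∆CT and 0.364% in JMO cells. Counts at an unadjusted p, here and elsewhere, are given without the share of all genes at that level. At an unadjusted p below 0.05 there were 3 members in IR cells and 0 in K1030R cells, ∆CT and JMO cells. DESeq2 and limma voom also called 0 members in every line. The 3 were Bckdk (-0.13 ± 0.04, adjusted p = 0.105), Ppm1k (-0.16 ± 0.07, adjusted p = 0.221) and Bckdha (-0.14 ± 0.06, adjusted p = 0.269), log2 differences of insulin minus basal. Bckdk had 46.3, 46.8 and 44.6 CPM with insulin in IR cells, below its 3 basal libraries, and Ppm1k had 23.0, 21.1 and 23.0 CPM, also below. The difference of Bckdha was -0.07 without IR insulin replicate 3. Without IR basal replicate 3 the difference of Bckdk was -0.15 and passed (adjusted p = 0.0386).

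In the other lines the member nearest to a difference by p was Bckdha in JMO cells, with 20.8, 22.4 and 21.7 CPM after insulin, all below the 3 basal libraries, and an adjusted p of 0.744. Bcat1 in K1030R cells had 101, 103 and 101 CPM after insulin, a difference of 0.10 ± 0.06 (adjusted p = 0.91). Over the 40 differences of 10 members in 4 lines the 95% intervals stayed between -0.30 (Ppm1k in IR cells) and 0.26 (Dbt in IR cells) on the log2 scale. For each member and line, differences within its own interval are not excluded. Some intervals were narrower, such as -0.16 to 0.08 for Bcat2 in IR cells. The test of whether the insulin effect differed between the 4 lines called 0 members with edgeR, DESeq2 and limma voom (smallest adjusted p = 0.952 by edgeR, 0 members at an unadjusted p below 0.05), where 0.429% of all genes were called.

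Enzymes further down the 3 branches, 18 genes that include Mccc2, Pccb, Acat1 and Oxct1, were read beside the members. Against DKO 16 of 18 rose in IR cells (background 25.6%), 14 in K1030R (21.2%) and 16 in ∆CT cells (23.4%) and 0 fell, while in JMO cells 7 rose (16.8%) and 1 fell (17.4%). Their median log2 fold changes were 0.28, 0.26, 0.31 and 0.10. For JMO the count of 8 was 5 without DKO basal replicate 3. By the contrast of means (IR, K1030R and ∆CT against DKO and JMO), 14 of 18 rose (background 26.7%) and 0 fell, with a median of 0.18. Oxct1, which activates acetoacetate for oxidation, had the smallest adjusted p in that contrast (0.50, adjusted p = 6.54e-22). Of the others, named after their values were seen, Pccb, the beta subunit of propionyl-CoA carboxylase, had log2 fold changes against DKO of 0.75 in IR cells, 0.61 in K1030R and 0.67 in ∆CT cells, and Mccc2, the partner subunit of Mccc1, rose in all 4 lines, by 0.50, 0.40, 0.50 and 0.38 in IR cells, K1030R, ∆CT and JMO cells.

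Transport of branched-chain amino acids was covered by 6 carrier genes, of which 5 were tested. Against DKO 3 rose and 1 fell in IR cells, K1030R and ∆CT cells alike (backgrounds in either direction 49.8%, 41.6% and 46.4%), and 3 rose and 0 fell in JMO cells (34.2%). Slc3a2, the heavy chain of the exchanger that brings leucine into cells, rose by a log2 fold change of 0.79 in IR (adjusted p = 1.66e-17), 0.67 in K1030R cells, 0.60 in ∆CT and 0.41 in JMO cells. Its partner Slc7a5, the light chain, also named after its values were seen, rose by 1.11, 1.08, 1.04 and 0.47 in the same order. Slc43a2, a uniporter for large neutral amino acids, fell by 1.46 on the log2 scale in IR cells (adjusted p = 9.99e-17), and in the contrast of the means it fell by 1.15 (adjusted p = 4.99e-20). Its difference of JMO from DKO cells was -0.05 (adjusted p = 0.648).

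**Figure D4:**
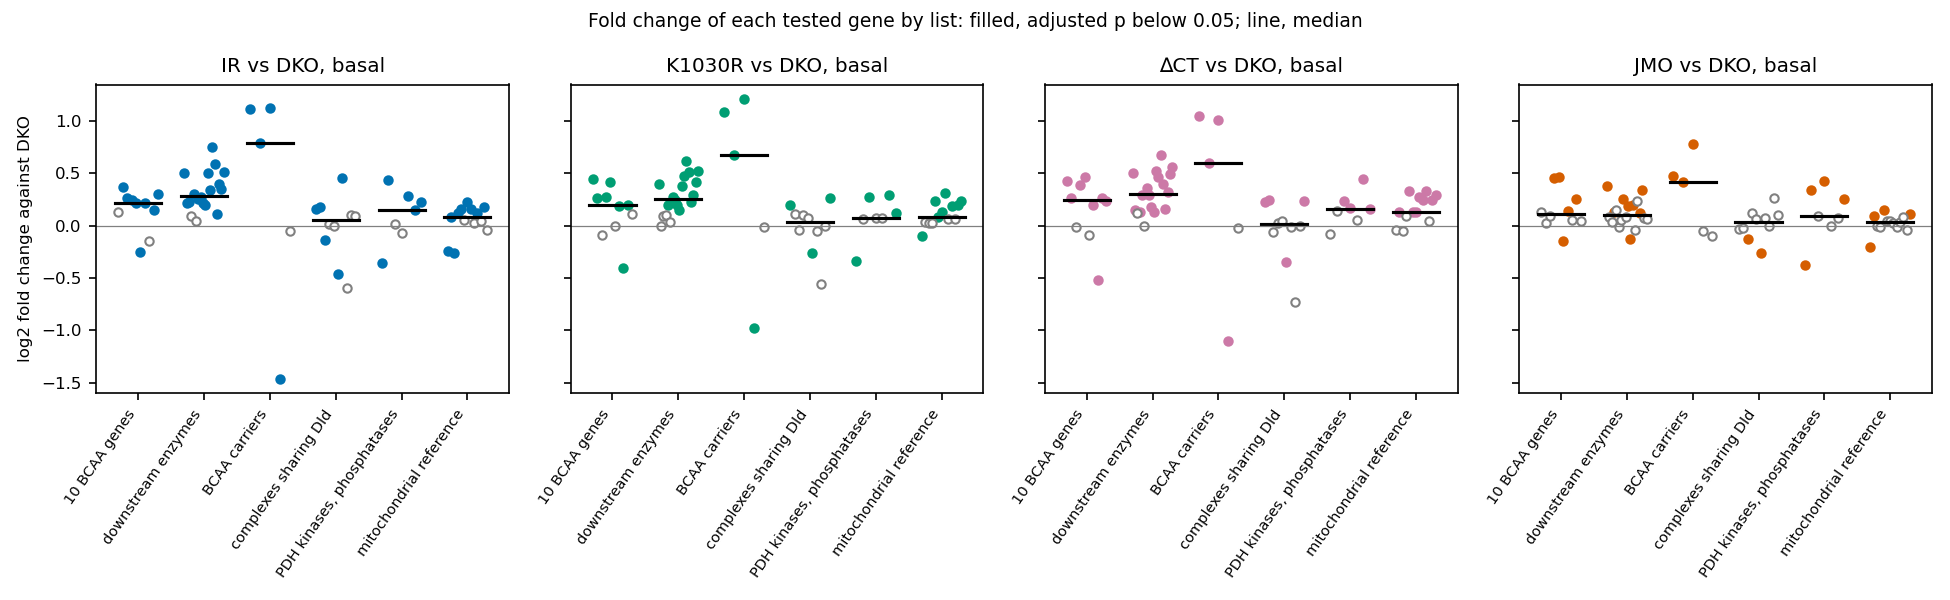
Log2 fold change against DKO (vertical axis, shared) of every tested gene in 6 lists, for IR, K1030R, ∆CT and JMO cells without insulin; filled points have an adjusted p below 0.05, grey open points do not, and the black line is the median. The medians of the downstream enzymes are 0.28, 0.26, 0.31 and 0.10, and those of the mitochondrial reference genes 0.08, 0.08, 0.13 and 0.03.

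Mitochondrial genes outside the pathway were also read, as a chosen list that was not shown to stand for the organelle's transcripts at large. Of 13 reference genes (citrate cycle enzymes, Tomm20, Vdac1 and Hspd1), 7 rose and 2 fell in IR cells (background in either direction 49.8%), 7 rose and 1 fell in K1030R cells (41.6%), 9 rose and 0 fell in ∆CT cells (46.4%), and 3 rose and 1 fell in JMO cells (34.2%) against DKO. Their median log2 fold changes were 0.08, 0.08, 0.13 and 0.03, beside 0.21, 0.20, 0.24 and 0.11 for the 10 members. The summed level of the 13 genes lay between 1958 and 2304 CPM over the libraries. Vdac1, a channel of the outer membrane, rose by 0.18 and Cs, citrate synthase, fell by 0.24 on the log2 scale in IR against DKO cells (adjusted p = 4.56e-06 and 2.18e-08). Vdac1 also rose in K1030R and ∆CT cells (0.20 and 0.24), and Cs also fell in K1030R and JMO cells (-0.10 and -0.20), the call in K1030R cells being lost with no filter on low counts (adjusted p = 0.0662). In the contrast of means Vdac1 rose by 0.23 and Idh3a, a subunit of isocitrate dehydrogenase, fell by 0.10 (adjusted p = 3.44e-12 and 0.00114). Against DKO, Idh3a was called in IR cells (-0.26) and in none of the other 3 lines. Their part in the differences of the members was not tested. The IR count of 9 was 5 without IR basal replicate 1 and with library totals as the only scaling, and the JMO count of 4 was 1 without JMO basal replicate 2 and 2 without DKO basal replicate 3.

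Another 6 genes named as regulators of branched-chain amino acid genes were read from a list. Against DKO 3 of 6 rose and 2 fell in IR cells (background in either direction 49.8%), 4 rose and 1 fell in K1030R and in ∆CT cells (41.6% and 46.4%), and 2 rose and 1 fell in JMO cells (34.2%). The ∆CT count of 5 was 3 without ∆CT basal replicate 3. Ppargc1a, a coactivator of mitochondrial genes, rose against DKO in all 4 lines, by log2 fold changes of 1.09 in IR cells (adjusted p = 3.5e-11), 0.66 with K1030R, 0.67 with ∆CT and 0.79 with JMO (adjusted p = 1.55e-07). Myc, which can induce Bcat1, fell by 1.24 on the log2 scale in IR cells (adjusted p = 2.23e-10), by 0.67 with K1030R, by 0.88 with ∆CT and by 0.86 in the contrast of the means (adjusted p = 2.37e-11). Atf4, a factor of the amino acid response, rose by 0.68 in the same contrast (adjusted p = 2.34e-18). Against DKO, Atf4 rose by 0.50 with IR and by 0.67 with both K1030R and ∆CT, and it fell by 0.14 with JMO (adjusted p = 0.0252), a call lost without DKO basal replicate 1 or 2 or JMO basal replicate 3 (adjusted p from 0.0524 to 0.148).

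Markers of other cell types were read for the same libraries, and their part in the differences of the members was not tested. Macrophage and leukocyte markers summed to between 2.42 and 4.82 CPM over the libraries, with Ptprc, Adgre1 and Itgam below 0.5 CPM in every one. The other leukocyte markers, Cd68 and Csf1r (the latter named after its values were seen), fell by 0.56 and 1.31 on the log2 scale in IR against DKO cells (adjusted p = 0.00307 and 0.00317), and by 0.32 and 0.66 in the contrast of means (adjusted p = 0.01 and 0.013). Cd68 also fell against DKO by 0.69 with K1030R, by 0.66 with ∆CT and by 0.63 with JMO (adjusted p = 0.00164 for JMO). In the contrast of means Cd68 was lost with DESeq2 (adjusted p = 0.054) and with no filter (0.0764), and Csf1r without DKO basal replicate 3 (-0.55, adjusted p = 0.0621). Endothelial markers summed to between 7.02 and 17.5 CPM, with Cdh5, Kdr and Tek below 0.5 CPM throughout. Skeletal muscle markers summed to between 1.96 and 5.36 CPM, with Myod1, Myog and Myf5 below 0.5 CPM throughout, and Des fell by 0.58 on the log2 scale in the contrast of means (adjusted p = 0.000161), and against DKO it was called in K1030R cells (-0.65, adjusted p = 0.00841), a call lost without K1030R basal replicate 2 (-0.53, adjusted p = 0.0622). The mature adipocyte list summed to between 0.552 and 4.94 CPM and only Fabp4 reached 0.5 CPM in any library. Fabp4 fell by 1.79 on the log2 scale in IR against DKO cells (adjusted p = 2.63e-07), by 0.85 in K1030R cells (0.00282) and by 1.5 in ∆CT cells (3.98e-06), and rose by 0.83 in JMO cells (0.000989). The preadipocyte list summed to between 798 and 901 CPM over the libraries, while within it Ly6a fell by 3.33 and Thy1 rose by 1.72 on the log2 scale in IR against DKO cells (adjusted p = 1.77e-23 and 1e-19). Against DKO, Ly6a also fell by 3.67 in the K1030R line, by 3.96 with ∆CT and by 2.06 with JMO, where Thy1 rose by 2.12, 1.92 and 1.99 in the same order. Cd34, of the same list, rose by 1.81 with IR, 1.62 with K1030R, 2.03 with ∆CT and 0.49 with JMO, and by 1.57 in the contrast of means (adjusted p = 5.63e-20). Zic1 rose by 0.21 in IR cells and by 0.14 in the contrast of means (adjusted p = 1.48e-06 and 4.35e-07), and it fell by 0.13 in JMO against DKO cells (0.00243).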

How the data were processed

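The 26 libraries of the 9 groups hold polyadenylated RNA. Per the paper's methods, the authors captured mRNA with oligo-dT (KAPA mRNA HyperPrep), sequenced 100 bp reverse-stranded single-end reads, trimmed them with fastp (Phred 15 or above), assigned them with kallisto to Ensembl 98 mouse transcripts and summed them to genes with tximport. The values deposited are expected counts per gene, neither filtered nor scaled, and whether kallisto used strand is not given in the sources used here.

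The members and lists were chosen with earlier results of these data known. Before rounding, 15402 of 52962 genes exceeded 0.5 CPM in 4 or more libraries, and these were tested on rounded counts. R 4.3.3 and edgeR 4.0.16 were used: TMM scaling, then a robust quasi-likelihood fit of every library with a separate mean for each group. Contrasts were called at 0.05 after Benjamini-Hochberg adjustment over the genes tested, and 95% intervals are from the t distribution with 17 degrees of freedom. A stricter call used glmTreat at a fold of 1.5. The procedure was tested on simulated data. Levels are CPM per library, and the SE of a log2 fold change is from the model. The biological coefficient of variation was 4.44%. Genes named were all 10 members, from each other list the gene with the smallest adjusted p in either direction in 2 contrasts (IR against DKO, and the mean of IR, K1030R and ∆CT against that of DKO and JMO), the 3 genes most like the 2 members of widest range, and those said to be named after their values were seen. Alternatives were RLE scaling, library totals only, no filter, at least 10 counts in 4 libraries, unrounded counts, DESeq2 1.42.0, limma voom 3.58.1, a replicate block, only the groups compared, insulin libraries in place of basal ones, and each library left out in turn. Gene positions were taken from the GENCODE mouse annotation (GRCm38) and upstream sequences from RefSeq.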

Additional observations from a re-analysis of the deposited data

How the results depend on the processing

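Over 59 called differences of single members, 43 kept the call and all kept the direction in every alternative run, and 70 recomputed values no longer passed. Of the counts, the 8 members changed between IR and DKO cells became 5 with DESeq2, the 5 between ∆CT and IR cells became 2 and the 5 between JMO and IR cells became 3 with insulin in place of basal libraries. The cause was not tested. With 1 library left out the count ran from 6 to 9 for IR, 6 to 7 for K1030R, 8 to 9 for ∆CT and 5 to 6 for JMO against DKO, 4 to 6 for K1030R, 5 to 5 for ∆CT and 4 to 6 for JMO against IR, 4 to 5 for JMO against K1030R, 3 to 4 for JMO against ∆CT, and 5 to 6 for the contrast of the means. For insulin it was 0 to 1 in IR cells (1, Bckdk, without IR basal replicate 3) and 0 in the other lines. Here and elsewhere, shares of all genes called with a library left out or in other alternatives, insulin libraries apart, are not given. A shift in such a count can therefore not be told from one in the share of all genes called. The difference of Bcat2 between JMO and DKO cells, not a call, was 0.02, -0.02 without JMO basal replicate 1 and 0.05 without DKO basal replicate 3. Counts of 6 other lists, but not of the cell type markers, and 109 called differences of genes named from these and the marker lists were recomputed under settings chosen after seeing the data. Of 3815 gene values 0 reversed and 10 no longer passed.

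Same-numbered libraries of different lines did not deviate together (median r = 0.000536 over 100 pairs, none over 0.0975), 7 of 26 libraries were closest to their own number, and the numbers share nothing else in the labels. With a replicate block the counts of members changed against DKO were 9 for IR, 7 for K1030R, 8 for ∆CT and 5 for JMO, all within 1.5 times of those reported, and 0 for insulin in every line. The share of all genes called with the block is not given. The block made a call of Bcat1 between IR and DKO cells (0.13, adjusted p = 0.0458) and ended 0 of the 59 calls, and the count of JMO against IR cells was 6 with it. Depth limits Bckdhb most, with 133 counts in its lowest library.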

Other observations

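Other complexes that use Dld were read as well. Of 10 genes of the pyruvate, ketoglutarate and ketoadipate dehydrogenases and the glycine cleavage system, 3 rose and 2 fell in IR cells (49.8% of all genes were called in either direction), 2 rose and 1 fell in K1030R cells (41.6%), 3 rose and 1 fell in ∆CT cells (46.4%), and 0 rose and 2 fell in JMO cells (34.2%) against DKO, the last count being 1 without DKO basal replicate 1 (edgeR's quasi-likelihood test, adjusted p below 0.05). Dlst, the core transacylase of ketoglutarate dehydrogenase, fell in all 4 lines, by log2 fold changes of -0.46 in IR cells, -0.26 in K1030R cells, -0.35 in ∆CT and -0.26 in JMO cells. Pdha1, the alpha subunit of the pyruvate dehydrogenase decarboxylase, rose by 0.21 in the contrast of means (IR, K1030R and ∆CT against DKO and JMO) (adjusted p = 3.66e-11), and Dhtkd1, the decarboxylase of the ketoadipate complex, rose by 0.45 in IR cells (adjusted p = 1.15e-06) and was called in none of the other 3 lines.

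The kinases and phosphatases of pyruvate dehydrogenase, which act on that complex as Bckdk and Ppm1k act on BCKDH, were read from a list. Of 7 genes, 4 rose and 1 fell in IR cells, 3 rose and 1 fell in K1030R cells, 4 rose and 0 fell in ∆CT cells, and 3 rose and 1 fell in JMO cells against DKO, beside the same 4 shares of all genes. Pdk1 fell by a log2 fold change of 0.36 and Pdk2 rose by 0.43 in IR cells (adjusted p = 8.01e-05 and 4.43e-05). Pdk1 also fell with K1030R (-0.34) and JMO (-0.38), and Pdk2 also rose with JMO (0.34). Pdp2, a phosphatase, rose by 0.26 and Pdk4, a kinase, fell by 0.15 in the contrast of the means (adjusted p = 1.64e-09 and 7.47e-08). Against DKO, Pdk4 rose by 0.42 with JMO (adjusted p = 8.24e-13) and by 0.17 with ∆CT (adjusted p = 2.91e-05), and it was -0.07 with IR and 0.07 with K1030R, neither a call. Pdp2 rose against DKO by 0.15 with IR, 0.29 with K1030R and 0.44 with ∆CT, and the call with IR was lost with DESeq2 and with library totals as the only scaling (adjusted p = 0.0535 and 0.0572).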
